A study of Mus musculus with 3 samples.

Results

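The genes described here are those that mouse liver and testis both held at a much higher RNA level than brain. They were chosen by measured values: FPKM (fragments per kilobase of transcript, scaled to the mapped fragments of the library) of at least 5 in liver and in testis, and a lower of those 2 levels at least 4-fold above brain on the log2(FPKM + 1) scale, for loci of at least 200 bp whose estimate was marked OK in all 3 tables. The rule found 98 genes among 29710 gene features that met the length and status conditions. Liver, brain and whole testis came from male C57BL/6 mice aged 11 weeks, with no treatment or engineered allele named in the labels, and each tissue gave 1 strand-specific library of polyadenylated RNA. The labels do not say how many animals went into a library. With 1 library per tissue no difference below has a replicate check and no test was run. The authors' intervals, printed in parentheses and taken as 95% bounds although the headers name no level, cover estimation error within a library only.

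Liver is the main organ of gluconeogenesis, lipoprotein assembly, bile acid synthesis and the inactivation of foreign compounds, and hepatocytes carry most of that work. Testis makes androgens in Leydig cells from cholesterol, while Sertoli cells and developing germ cells handle large amounts of lipid and use sugars and their derivatives as fuel. Neurons and glia rely mainly on glucose and ketone bodies made elsewhere and are shielded from the plasma by the blood-brain barrier. In whole-organ RNA such as this, fewer cells of a type and less RNA per cell cannot be told apart.

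The tissue labels were checked against marker genes. Albumin (Alb) stood at 20975 FPKM in liver, 3.79 in testis and 3.73 in brain, the neuronal gene Snap25 at 933 FPKM in brain and under 0.1 in the other tissues, and 14 germ cell markers in liver at 0 to 0.00613% of their testis level. These markers were therefore highest in the organ that each label names. In brain the germ cell markers reached 0.0349 to 0.439% of their testis level, with a median of 0.0716%.

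Membership was rare: the 98 genes were 0.33% of the features tested and 2.31% of the 4247 genes at 5 FPKM or more in both liver and testis. Liver exceeded brain by at least 4-fold at 3.21% of features and testis did so at 12.9%, each counted without regard to the third tissue. Protein-coding genes made up 88 of the 98 (89.8%, exact 95% binomial interval 82.03 to 94.997%, counting error only), a share of 0.477% of protein-coding features and 2.82% of the 3116 at 5 FPKM in both organs. Another 7 were annotated as pseudogenes (0.154% of those tested), 1 as long noncoding RNA (0.0361%) and 2 had no match in the annotation (0.0584%). The same rule applied to the other pairs of organs gave 674 of 5660 genes for brain and testis against liver (11.9%) and 324 of 4683 for brain and liver against testis (6.92%).

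The median member stood at 0.841 FPKM in brain, but 35.7 in liver and 26.7 in testis. In brain 5 members were listed at 0 (Hsd3b3, Hsd3b6, Adh4, Fgfr4 and Cfhr3) and 54 lay under 1 FPKM, while 15 reached 5 FPKM. Those at 10 FPKM or more in brain were Ddt, Stard10, Clpx, Acsl1 and Me1, so low in brain here means low against the other organs and not silent. The smaller of the differences from brain had a median of 2.78 on the log2(FPKM + 1) scale, against -0.70 over all 4247 genes at 5 FPKM in both organs, a contrast that the rule itself set. It reached 8-fold for 37 members, 16-fold for 11 and 32-fold for 3. The brain interval lay below both other intervals for 97 of 98 members, which the rule favours, so the count is no separate check. The exception was Fgfr4, the fibroblast growth factor receptor that restrains bile acid synthesis in hepatocytes: it was listed at 0 in brain, at 142 FPKM (83.5–201) in liver and at 10.9 FPKM (0–32.4) in testis, so its testis level cannot be set apart from brain.

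At the edge of the rule, the members nearest the fold limit were Cks2 (2.002), Me1 (2.01) and Ephx1 (2.02 on the log2 scale), and the nearest genes outside it were Xlr4a, 2310039H08Rik and Pde3b at 1.999, 1.99 and 1.98. Nearest the abundance limit were Agtr1a, Hsd3b3 and Cd5l, at 5.19, 5.30 and 5.30 FPKM in testis. Just outside it lay Msr1 (4.92 FPKM in liver), the complement gene C8b (4.92 in testis, 253 in liver) and Ube2u (4.86 in liver).

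The upstream sequence of 6 members is printed here because the members' promoters differed in CpG content, and these 6 include low and high cases from several roles. Each line gives the 250 bases before the RefSeq start of the gene on its own strand, 5′ to 3′, in GRCm38.p6, with every CpG in capitals. The expression tables use the older mm9 build, and coordinates of the builds were not mixed. Fbp1, Agpat2 and Acsl1 are enzymes of glucose, phospholipid and fatty acid metabolism, Stard10 a phospholipid carrier, Aqp9 a glycerol channel and Hsd3b6 a steroid dehydrogenase.
Aqp9, chr9:71163290-71163539, minus strand: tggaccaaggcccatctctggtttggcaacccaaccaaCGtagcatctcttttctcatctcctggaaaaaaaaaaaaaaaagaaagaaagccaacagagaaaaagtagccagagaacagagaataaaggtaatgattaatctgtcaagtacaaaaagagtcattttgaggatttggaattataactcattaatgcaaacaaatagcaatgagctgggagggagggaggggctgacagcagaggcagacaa
Hsd3b6, chr3:98814444-98814693, minus strand: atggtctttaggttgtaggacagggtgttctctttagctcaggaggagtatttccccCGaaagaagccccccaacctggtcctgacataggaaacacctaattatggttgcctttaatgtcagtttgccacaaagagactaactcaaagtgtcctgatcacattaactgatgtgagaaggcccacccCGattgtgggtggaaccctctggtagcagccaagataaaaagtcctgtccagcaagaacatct
Stard10, chr7:101316836-101317085, plus strand: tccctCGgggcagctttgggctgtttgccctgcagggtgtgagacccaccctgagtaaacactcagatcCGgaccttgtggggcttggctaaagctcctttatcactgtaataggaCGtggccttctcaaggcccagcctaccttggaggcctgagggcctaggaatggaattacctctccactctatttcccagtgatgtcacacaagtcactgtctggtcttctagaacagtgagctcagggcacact
Fbp1, chr13:62888283-62888532, minus strand: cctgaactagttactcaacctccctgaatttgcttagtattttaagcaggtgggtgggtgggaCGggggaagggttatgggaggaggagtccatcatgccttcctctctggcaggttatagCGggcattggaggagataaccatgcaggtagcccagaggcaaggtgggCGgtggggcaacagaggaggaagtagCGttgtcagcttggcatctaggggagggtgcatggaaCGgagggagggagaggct
Agpat2, chr2:26604418-26604667, minus strand: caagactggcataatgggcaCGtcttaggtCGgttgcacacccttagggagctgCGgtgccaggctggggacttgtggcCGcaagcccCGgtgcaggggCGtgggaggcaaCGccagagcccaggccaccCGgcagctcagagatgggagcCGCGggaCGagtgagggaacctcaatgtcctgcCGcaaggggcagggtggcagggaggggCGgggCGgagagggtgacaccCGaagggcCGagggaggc
Acsl1, chr8:46470787-46471036, plus strand: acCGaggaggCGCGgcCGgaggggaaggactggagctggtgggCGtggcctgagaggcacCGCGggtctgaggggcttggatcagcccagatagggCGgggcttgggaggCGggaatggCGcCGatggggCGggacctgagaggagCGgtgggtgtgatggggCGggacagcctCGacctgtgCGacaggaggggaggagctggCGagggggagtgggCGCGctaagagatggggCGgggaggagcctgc
The 6 stretches hold between 1 CpG (Aqp9) and 20 (Acsl1). Of the short motifs searched, the Fbp1 stretch holds a CCAAT and a GGGCGG, the Agpat2 and Acsl1 stretches hold GGGCGG alone, and the other 3 hold none of them.

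Across members, 66 of the 88 protein-coding genes had an entry in the RefSeq promoter table. Their CpG count divided by the count expected from base composition had a median of 0.46 over the 250 upstream bases. The other 2426 protein-coding genes at 5 FPKM in liver and testis had a median of 0.81, and all 14176 tested protein-coding genes had 0.59. A ratio under 0.35 was found for 31 of 66 members (47.0%), for 5.44% of those other genes and for 33.0% of all tested protein-coding genes. Members therefore sat below genes of like breadth between liver and testis and nearer to all tested genes. The sets shared by brain with testis or with liver had medians of 0.74 (471 genes) and 0.63 (184 genes), with 12.1% and 19.0% under 0.35. Within the members the ratio went with the organ of higher level: its median was 0.22 for the 16 whose liver level was at least 4-fold above testis, 0.50 for the 25 within 2-fold, and 0.66 for the 16 whose testis level was at least 2-fold above liver.

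**Figure D1:**
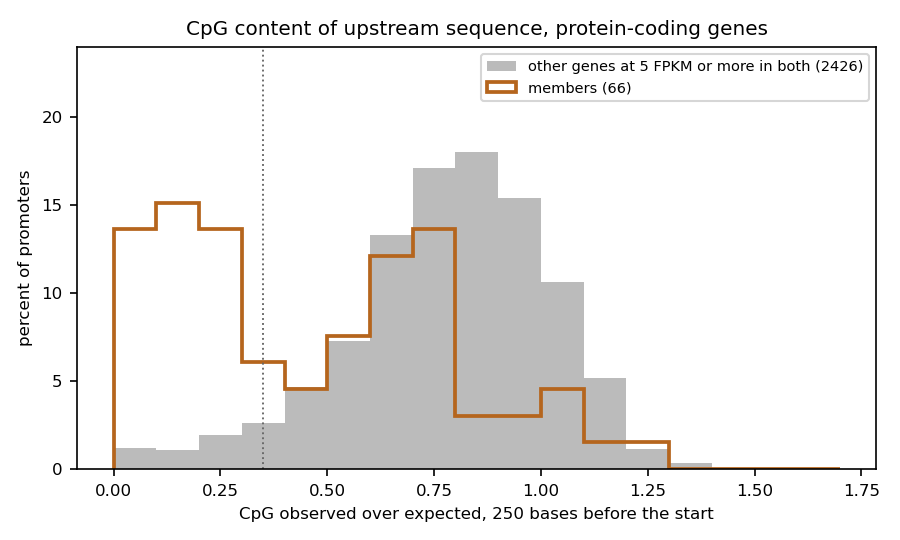
Ratio of observed to expected CpG in the 250 bases before the RefSeq start (x axis) against the percent of promoters (y axis), for 66 members (outline) and 2426 other protein-coding genes at 5 FPKM or more in liver and testis (grey). Of the members, 47.0% lie left of the dotted line at 0.35, against 5.44% of the other genes.

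Fbp1, the fructose bisphosphatase that carries out a late step of gluconeogenesis, had the largest difference of all members. It lay at 0.243 FPKM (0.0919–0.394) in brain against 223 (219.7–225) in liver and 192 (185–198) in testis, 7.28 on the log2 scale above brain at its lower organ. Its locus spans chr13:62966113-62989642 on the minus strand in mm9. Liver and testis differed by only 0.22 and no interval overlapped another. Fbp2, which encodes the muscle form of the enzyme, stayed at or under 0.160 FPKM in all 3 organs.

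The sugar and polyol enzymes were close between liver and testis. Sord oxidises sorbitol to fructose and stood at 4.62 FPKM (4.29–4.96) in brain, but 119 (117–119.7) in liver and 374 (371–377) in testis, so testis was the highest. Tkfc, the triokinase of fructose breakdown, lay at 1.74, 44.7 and 43.2 FPKM in brain, liver and testis, with overlapping intervals for the last pair (44.0–45.4 and 42.2–44.3). Galm, which interconverts the forms of galactose and glucose, gave 0.542, 25.2 and 15.4 FPKM. Me1 makes NADPH from malate for lipid synthesis and passed the rule only just, at 14.0, 59.6 and 78.3 FPKM. Of the 5 genes in this group 4 were within 2-fold between liver and testis.

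The channels of the group move water and glycerol. Aqp9, a channel for glycerol and other small solutes, stood at 0.258 FPKM (0.123–0.394) in brain against 30.6 (29.8–31.4) in liver and 16.5 (15.6–17.5) in testis. Aqp8, a water channel, stood at 0.0354, 34.4 and 14.3 FPKM. Both were higher in liver than in testis, by less than 4-fold.

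**Figure D2:**
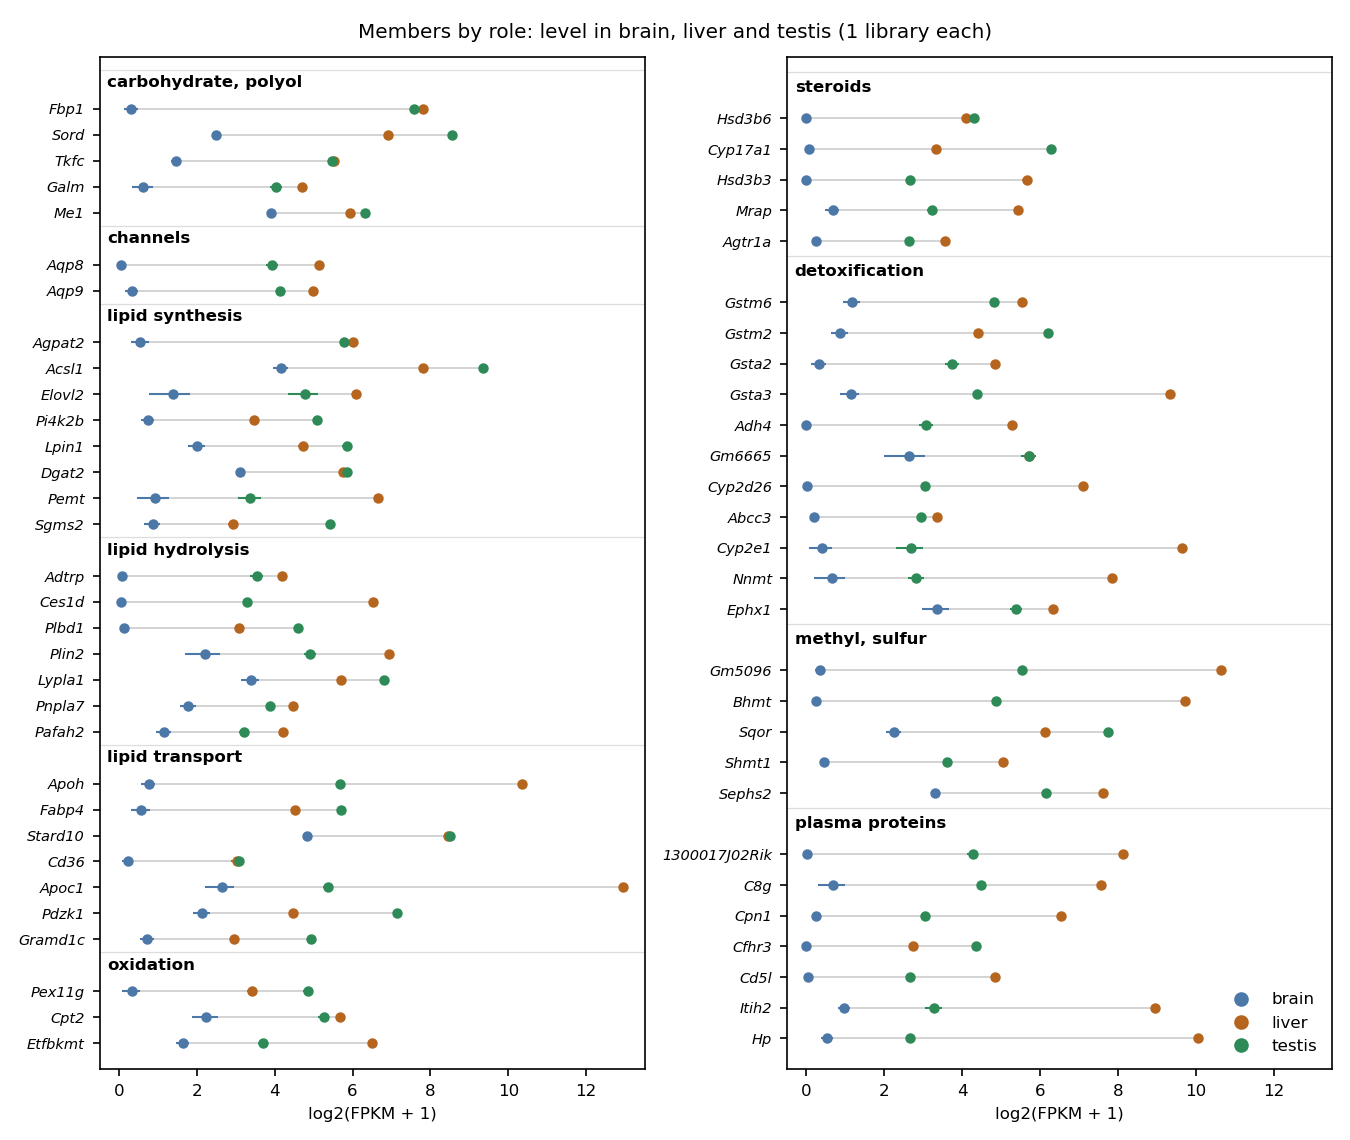
Level of 60 members in brain, liver and testis (x axis, log2(FPKM + 1)), grouped by role, with 1 point per library and the authors' interval as a bar where wider than the point. Brain is the lowest point on every line, and the order of liver and testis changes from group to group, with liver to the right in 6 of the 7 plasma protein genes drawn.

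Genes that activate fatty acids and build glycerolipids formed a group of 8. Agpat2, which adds the second acyl chain on the way to phosphatidic acid, lay at 0.460 FPKM (0.230–0.691) in brain, but 63.9 (61.6–66.3) in liver and 54.2 (51.2–57.3) in testis. Its relative Agpat1 gave 21.6, 1.295 and 67.5 FPKM, an order in which brain exceeded liver. Acsl1, which couples long fatty acids to coenzyme A, lay at 16.8 (14.4–19.3), 222 (216–228) and 651 FPKM (636–666). Acsl3, another enzyme of that family, had the opposite order at 128, 18.6 and 16.6 FPKM. Neither relative therefore had the members' pattern.

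Further along the path, Lpin1 removes the phosphate from phosphatidic acid and lay at 3.01, 25.3 and 56.5 FPKM in brain, liver and testis. Dgat2, which completes triglycerides, lay at 7.62 (7.18–8.07), 53.4 (52.6–54.2) and 57.04 (55.8–58.2). Its relative Dgat1, which carries out the same step, gave 4.69, 3.46 and 25.1 FPKM, so only Dgat2 was nearly level between liver and testis. Elovl2, an elongase of polyunsaturated fatty acids, gave 1.64, 67.3 and 26.4 FPKM. Pemt, which makes phosphatidylcholine by methylation, leaned to liver (0.9004, 99.7 and 9.39 FPKM). Sgms2, a sphingomyelin synthase, and Pi4k2b, a phosphatidylinositol kinase, leaned to testis, at 42.1 against 6.58 and 33.2 against 10.01 FPKM in liver.

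Among 7 genes of lipid droplets and lipid hydrolysis, Plin2, which coats lipid droplets, stood at 3.63 FPKM (2.25–5.01) in brain against 121 (117–125) in liver and 29.0 (25.9–32.1) in testis. Ces1d, a carboxylesterase that hydrolyses triglyceride, stood at 0.0439, 90.9 and 8.80 FPKM. The highest level of Lypla1, which cleaves acyl groups from lipids and proteins, was in testis at 111 FPKM against 51.0 in liver and 9.45 in brain. Adtrp, which hydrolyses fatty acid esters, the phospholipase family genes Plbd1 and Pnpla7, and Pafah2, which inactivates platelet-activating factor, ranged from 7.54 to 20.998 FPKM in liver and from 8.22 to 23.4 in testis. Liver was the higher organ for 5 of the 7.

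Lipid carriers included members with very unequal levels. Stard10, which transfers phospholipids between membranes, lay at 27.5 FPKM (26.3–28.7) in brain, but 348 (344–352) in liver and 362 (355–368) in testis. Cd36, a fatty acid receptor, was also level between the organs at 7.23 (6.36–8.10) and 7.45 (7.11–7.80), against 0.171 in brain. Fabp4, the fatty acid binding protein of fat cells, macrophages and endothelium, gave 0.490, 21.9 and 51.1 FPKM. Because Cd36 and Fabp4 are also genes of vessels and macrophages, those markers are given: 13 endothelial markers summed to 58.8 FPKM in brain against 54.6 in liver and 20.8 in testis, and 15 macrophage and leukocyte markers to 28.6, 162 and 41.6, with no member in either list. Their part in these 2 results was not tested.

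Apolipoproteins leaned far to liver. Apoh, a phospholipid-binding plasma protein, lay at 0.694 FPKM (0.475–0.914) in brain, but 1299.8 (1294–1306) in liver and 50.6 (48.2–52.9) in testis. Apoc1, a constituent of lipoproteins, had the highest level of any member, 7927 FPKM in liver, against 40.03 in testis and 5.21 in brain. Pdzk1, a scaffold for the high-density lipoprotein receptor, ran the other way at 20.96 FPKM in liver and 141 in testis, with 3.40 in brain. Gramd1c, of a family of sterol carriers between membranes, likewise leaned to testis (6.70 against 29.7 FPKM, 0.651 in brain).

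In fatty acid oxidation Cpt2, which releases fatty acids from carnitine inside mitochondria, stood at 3.74 FPKM (2.68–4.80) in brain against 49.8 (46.6–52.9) in liver and 37.4 (33.6–41.3) in testis. Cpt1a, the liver form of the enzyme for the step before it, gave 2.72, 18.5 and 2.89 FPKM and was therefore high in liver alone. The peroxisome division gene Pex11g gave 0.256, 9.73 and 28.1, and Etfbkmt, a methyltransferase for a mitochondrial electron carrier, 2.12, 88.6 and 11.9. Liver was higher than testis for 3 of the 4 members of this group.

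Steroid genes stood close to 0 in brain. Hsd3b6, a hydroxysteroid dehydrogenase that makes the active form of steroid hormones, was listed at 0 in brain and lay at 16.2 FPKM (15.6–16.7) in liver and 18.9 (17.0–20.8) in testis. Hsd3b3 was also listed at 0 in brain and gave 49.6 FPKM in liver and 5.30 in testis. Cyp17a1, which commits steroids to the androgen path, stood at 0.0409 FPKM (0.00431–0.0774) in brain, but 8.97 (8.60–9.34) in liver and 76.6 (75.03–78.2) in testis. Of their relatives, Hsd3b1 gave 19.1 FPKM in testis and under 0.1 elsewhere, and Hsd3b5 60.3 FPKM in liver and under 0.1 elsewhere. Hsd3b2, whose estimate was not marked OK in every table, was listed at 0 in brain, 16.7 FPKM in liver and 3.96 in testis. Reads of Hsd3b3 are uncertain, since its transcript matches Hsd3b2 at 95.1% over 1122 bases.

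The steroid path as a whole was not shared. Star, which brings cholesterol into mitochondria, lay at 25.3 FPKM in testis, 0.260 in liver and 0.675 in brain. Cyp11a1, which makes the first steroid, lay at 20.9 FPKM in testis and was listed at 0 in liver. Among 39 tested genes of steroid synthesis and inactivation, 3 were members, 12 exceeded brain 4-fold in liver without testis and 7 in testis without liver. Of 6 Leydig cell markers Cyp17a1 and Hsd3b6 were members, and the 6 summed to 25.4 FPKM in liver and 162 in testis. Nearly all of the liver sum came from these 2 members, at 8.97 and 16.2 FPKM. The median of the 6 was 0.130 FPKM in liver and 20.4 in testis. Hormone response was represented by Mrap, an accessory protein of melanocortin receptors (0.596, 42.2 and 8.35 FPKM), and Agtr1a, an angiotensin receptor (0.185, 10.8 and 5.19).

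Detoxification held 11 members, of which 5 were at least 4-fold higher in liver than testis and none the reverse. Glutathione transferases, which attach glutathione to reactive compounds, differed in which organ was higher. Gstm2 lay at 0.832 FPKM (0.557–1.11) in brain against 20.2 (18.7–21.7) in liver and 72.7 (68.7–76.6) in testis. Gstm6 gave 1.26, 45.3 and 27.0 FPKM, Gsta2 0.251, 27.5 and 12.5, and Gsta3 1.20, 645 and 19.9. Their relative Gsta4 showed no such pattern, at 41.9, 45.0 and 43.2 FPKM, and Gstm5 was highest in testis and brain, at 1941 and 142 FPKM against 2.396 in liver. Gsta2 matches Gsta1 at 97.2% over 870 bases, and the gene model Gm6665 (5.18, 51.2 and 51.6 FPKM) matches Gstm2 at 97.9% over 145 bases, so the division of reads among these copies is uncertain.

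The oxidases and conjugating enzymes among the members were mostly liver genes with a low level in testis. Cyp2e1, which oxidises ethanol and small solvents, lay at 0.323 FPKM (0.0554–0.590) in brain, but 806 (793–819) in liver and 5.46 (3.97–6.96) in testis. Cyp2d26 gave 0.0183, 137 and 7.29 FPKM, and Nnmt, which methylates nicotinamide, 0.571, 229.9 and 6.10. Adh4, an alcohol dehydrogenase, was listed at 0 in brain and lay at 38.0 FPKM in liver and 7.47 in testis. The epoxide hydrolase Ephx1 and the conjugate exporter Abcc3 were more even, with liver and testis at 79.6 and 40.7 FPKM and at 9.28 and 6.70 FPKM.

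Methyl, sulfur and selenium metabolism held 5 members, of which 4 were higher in liver than in testis. Bhmt, which remethylates homocysteine with betaine, stood at 0.192 FPKM (0.122–0.262) in brain against 852 (849–855) in liver and 28.3 (27.4–29.1) in testis. Gm5096, a copy of Bhmt with 99.4% identity over 1869 bases, was listed at 0.284, 1592 and 45.6 FPKM, and the division of reads between the pair is uncertain. Bhmt2 gave 50.4 FPKM in liver and only 0.519 in testis. Shmt1, the cytosolic enzyme that passes carbon from serine to folate, gave 0.375, 32.01 and 11.2 FPKM, whereas its mitochondrial relative Shmt2 gave 3.82, 25.4 and 2.59. Sqor, which oxidises sulfide in mitochondria, was highest in testis (3.75, 68.7 and 215 FPKM), and Sephs2, which makes the selenium donor for selenoproteins, in liver (8.86, 195 and 69.8).

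Plasma protein genes were a group of 8, and 7 of them were at least 4-fold higher in liver than in testis. C8g, a subunit of the complement attack complex, lay at 0.615 FPKM (0.239–0.992) in brain, but 189 (185–193) in liver and 21.5 (19.9–23.1) in testis. The transferrin family gene 1300017J02Rik gave 0.00671, 282 and 18.3 FPKM. Haptoglobin (Hp), which binds free haemoglobin, lay at 0.451 (0.307–0.596), 1057 (1052–1062) and 5.35 FPKM (4.86–5.84). Itih2 and Cpn1 lay at 8.67 and 7.28 FPKM in testis and at 491 and 91.4 in liver. The exception was Cfhr3, a factor H related gene listed as a pseudogene, at 5.71 FPKM in liver and 19.5 in testis. Cd5l is secreted by macrophages and gave 27.6 FPKM in liver and 5.30 in testis. The Kupffer cell marker Clec4f, at 19.8 FPKM in liver, lay at 0.00563 in testis, the lowest there of 15 macrophage and leukocyte markers. Others of that list reached up to 11.6 FPKM in testis, and the 15 summed to 162 FPKM in liver and 41.6 in testis. The share of Cd5l in testis that comes from macrophages was not tested.

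Mitochondrial genes gave 4 members and the secretory pathway and membranes 6. Clpx, the unfoldase of a mitochondrial protease, lay at 24.04 FPKM (20.6–27.5) in brain against 112 (107–117) in liver and 161 (151–172) in testis. Its protease partner Clpp had another order, at 15.3, 11.0 and 4.89 FPKM. Mtfr1, which promotes mitochondrial fission, leaned to testis (3.07, 17.3 and 215 FPKM), while the carrier gene Slc25a30 was even (1.86, 16.7 and 11.7). Reep6, which shapes the endoplasmic reticulum, lay at 1.753 (1.29–2.21), 86.2 (83.6–88.8) and 224 FPKM (218–229.7), one of the 3 genes nearest to Fbp1 in the size of the difference, 4.99 on the log2 scale.

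Snap23, a membrane fusion protein, gave 4.97 FPKM in brain, but 28.5 in liver and 50.5 in testis, whereas its neuronal relative Snap25 was highest in brain. Tram1, part of the channel that takes new proteins into the endoplasmic reticulum, lay at 6.63, 32.5 and 51.5 FPKM, and the nuclear membrane gene Tor1aip2 at 0.994, 7.85 and 10.4. Qsox1 and Pdia5, which form disulfide bonds in secreted proteins, were both higher in liver, at 75.7 against 19.9 FPKM and 26.5 against 8.48. Of the 6 genes in this secretory and membrane group, none was 4-fold apart between liver and testis.

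Another 17 protein-coding members fell in no shared role. Ddt, D-dopachrome tautomerase, was the most abundant member in brain at 60.0 FPKM (57.3–62.7), with 427 (422–432) in liver and 359.7 (353–366) in testis. Car3, a carbonic anhydrase of liver, fat and muscle, gave 0.364, 437 and 14.4 FPKM. Ropn1l, a protein of the sperm tail, gave 3.28 FPKM (2.57–3.98) in brain against 23.6 (22.4–24.8) in liver and 2692 (2673–2711) in testis. Zfand4, a zinc finger gene, was similar in kind at 1.19, 9.44 and 277 FPKM. Brain levels of Ropn1l and Zfand4 were 0.122% and 0.429% of testis, inside the range of 0.0349 to 0.439% that the germ cell markers showed in brain. Their liver levels were 0.877% and 3.41% of testis. The part of germ cell RNA in the brain values was not tested. Paqr9, Nat8f4 and the signalling adaptor Stap2 were nearly level in liver and testis, at 26.3 and 26.1, 30.2 and 28.2, and 12.9 and 11.4 FPKM.

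Apart from Cks2, described next, and Fgfr4, described above, the rest of this mixed group lay between 7.23 and 91.8 FPKM in liver and between 11.0 and 45.6 in testis. Tgif1, a homeobox repressor, gave 0.471 FPKM in brain, then 7.91 and 22.8 in liver and testis. Akip1, which binds protein kinase A, was close to it at 0.361, 7.23 and 22.5 FPKM, and both leaned to testis. Dap, a death-associated protein, leaned to liver (1.55, 41.2 and 17.1 FPKM), as did the membrane gene Tmem205 (8.59, 91.8 and 45.6). The adhesion gene Ceacam2 gave 0.624, 17.1 and 11.0 FPKM, and it matches Ceacam1 at 98.8% over 1630 bases. Ifitm7, Rassf7 and Rmdn2 were all higher in testis, at 33.5, 13.9 and 33.6 FPKM against 21.2, 8.99 and 18.4 in liver.

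The cell cycle subunit Cks2 lay at 0.706 FPKM (0.429–0.983) in brain, but 5.84 (5.29–6.38) in liver and 46.6 (44.4–48.8) in testis. It is tied to the pseudogenes Gm15452 (4.96, 48.8 and 344 FPKM) and Gm12891 (0.827, 11.6 and 82.7), which match it at 100% and 98.3% over 240 bases. How reads were divided among these 3 is uncertain. In all, 14 of the 98 members matched a transcript elsewhere at 95% identity or more over at least 50% of their length, 9 of them protein-coding. The other 84 members include the 2 features without a match in the annotation, which had no transcript to search. Whether counting used strand is not given in the sources used here, so overlapping and antisense genes are uncertain too. Among the remaining noncoding features the long noncoding RNA 9630013D21Rik gave 0.179, 12.7 and 7.65 FPKM. The features without a match, ENSMUSG00000066252 and ENSMUSG00000037814, gave 0.213, 965 and 28.1 FPKM and 4.33, 26.5 and 166, a liver-leaning and a testis-leaning case. The pseudogenes Gm13131, Gm14686 and Mnd1-ps lay between 7.58 and 30.8 FPKM in liver and between 8.96 and 42.7 in testis. Their reads are uncertain too. Gm14686 matches Emd at 100% and Eif1 at 96.8% over 343 bases, Gm13131 matches Chpt1 at 95.05% and Mnd1-ps matches Mnd1 at 97.2%.

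Between liver and testis themselves, a comparison the rule did not use directly, 37 members were within 2-fold (37.8%), 26 were at least 4-fold higher in liver (26.5%) and 10 at least 4-fold higher in testis (10.2%). Over all 4247 genes at 5 FPKM in both organs these shares were 48.7%, 6.52% and 16.9%. The median difference of liver minus testis was 0.24 for members and -0.58 for all those genes. The 10 testis-leaning members were Ropn1l, Zfand4, Mtfr1, Cyp17a1, Cks2, Pdzk1, Sgms2, Gm15452, Gm12891 and ENSMUSG00000037814. Of the 26 liver-leaning members, 13 lay under 10 FPKM in testis, so these met the abundance limit narrowly. At the other end 15 members reached 50 FPKM in both organs and 6 reached 100: Fbp1, Sord, Acsl1, Stard10, Ddt and Clpx.

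**Figure D3:**
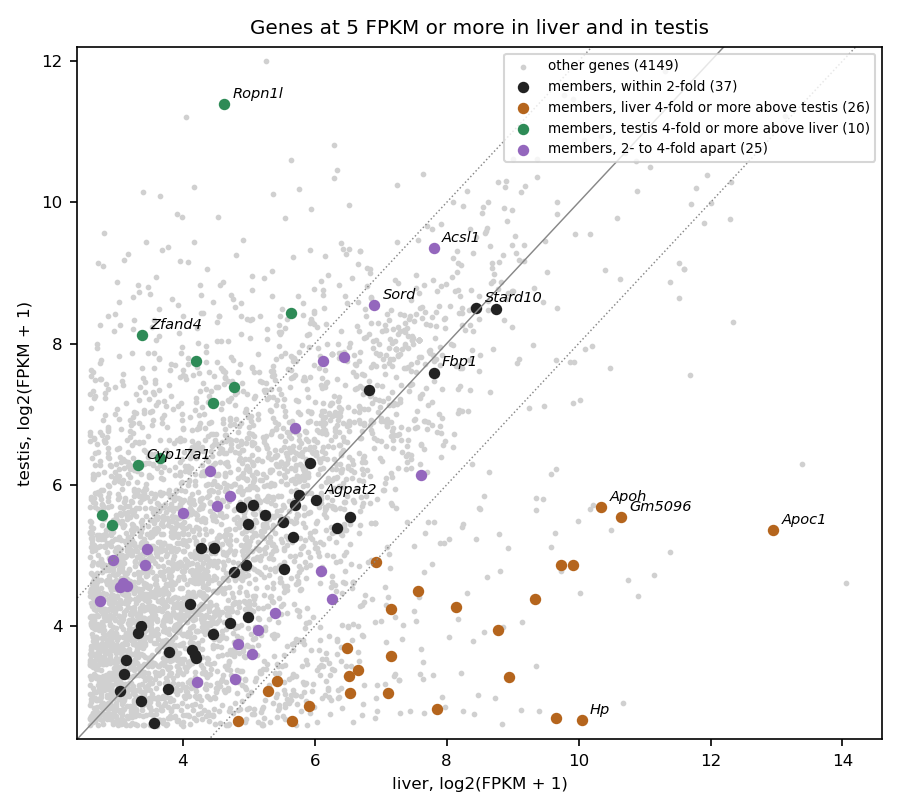
Liver level (x axis) against testis level (y axis), both log2(FPKM + 1), for the 98 members (coloured by the size of the difference) and 4149 other genes at 5 FPKM or more in both organs (grey). The solid line marks equal levels and the dotted lines 4-fold, with 26 members beyond the liver side and 10 beyond the testis side.

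Markers of each organ were also read in the other organ. The 13 hepatocyte markers stood in testis at 0.00864 to 0.137% of their liver level, and the 12 without Trf at 0.00864 to 0.0250%. The members' lowest shares were 0.505% for Apoc1, 0.506% for Hp and 0.678% for Cyp2e1, and the median member stood at 84.5%. In the other direction the lowest member was Ropn1l at 0.877%. The rule fixes this, so nothing is read from these shares. At their levels, the minimum of 5 FPKM in both organs put all members except Apoc1 above the marker range. For Apoc1 the 4-fold condition did the same, given its brain level of 5.21 FPKM, and its testis value was 40.03 FPKM. Which cells of testis held the RNA was not tested.

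The members were set against 20 functional gene lists, which were written with earlier results of these data known. On the lists, 763 genes were tested and 41 were members (5.37%, beside 0.33% of all features). Of the 226 list genes at 5 FPKM in both organs 18.1% were members, beside 2.31% of all genes at that level. The remaining 57 members were on no list. Fatty acid, triglyceride and phospholipid synthesis held 7 of 39 (Elovl2, Me1, Agpat2, Dgat2, Pemt, Plin2 and Ces1d), lipid transport 5 of 36, and glutathione metabolism 4 of 39. The synthesis list is broader than its name, since Plin2 coats lipid droplets and Ces1d hydrolyses triglyceride. One-carbon metabolism held 4 of 30, fatty acid oxidation 4 of 48, gluconeogenesis and glycerol 3 of 13 (Fbp1, Aqp9 and Lpin1) and fructose and polyol metabolism 3 of 26.

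Several lists that exceeded brain in liver did so without testis. Amino acid catabolism had 36 of 62 genes at least 4-fold above brain in liver and none of them in testis, so no member. The P450 list held Cyp2d26 and Cyp2e1 of 40 with 25 in liver without testis, and the conjugation list Nnmt and Ephx1 of 37 with 27. Complement and coagulation held C8g and Itih2 of 43, with 30 in liver without testis. Cholesterol synthesis (22 genes), nuclear receptors and transcription factors (44) and solute carriers (52) held no member. Only 9, 1 and 4 of their genes reached 5 FPKM in both organs, where 2.31% of all genes were members. Too few genes could pass for the lack of members to say anything about these lists. The cell cycle list was the reverse, with 24 of 40 above brain in testis without liver and Cks2 the 1 member. The remaining lists held 1 member each: Adh4 of 41 aldehyde and retinoid genes, Sqor of 42 nucleotide and vitamin genes, Me1 of 37 antioxidant genes and Pdia5 of 46 secretory genes. The median of the smaller difference from brain was at or below 0.09 in each of the lists, beside -0.14 over all features, since most list genes were high in 1 organ or in neither.

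**Figure D4:**
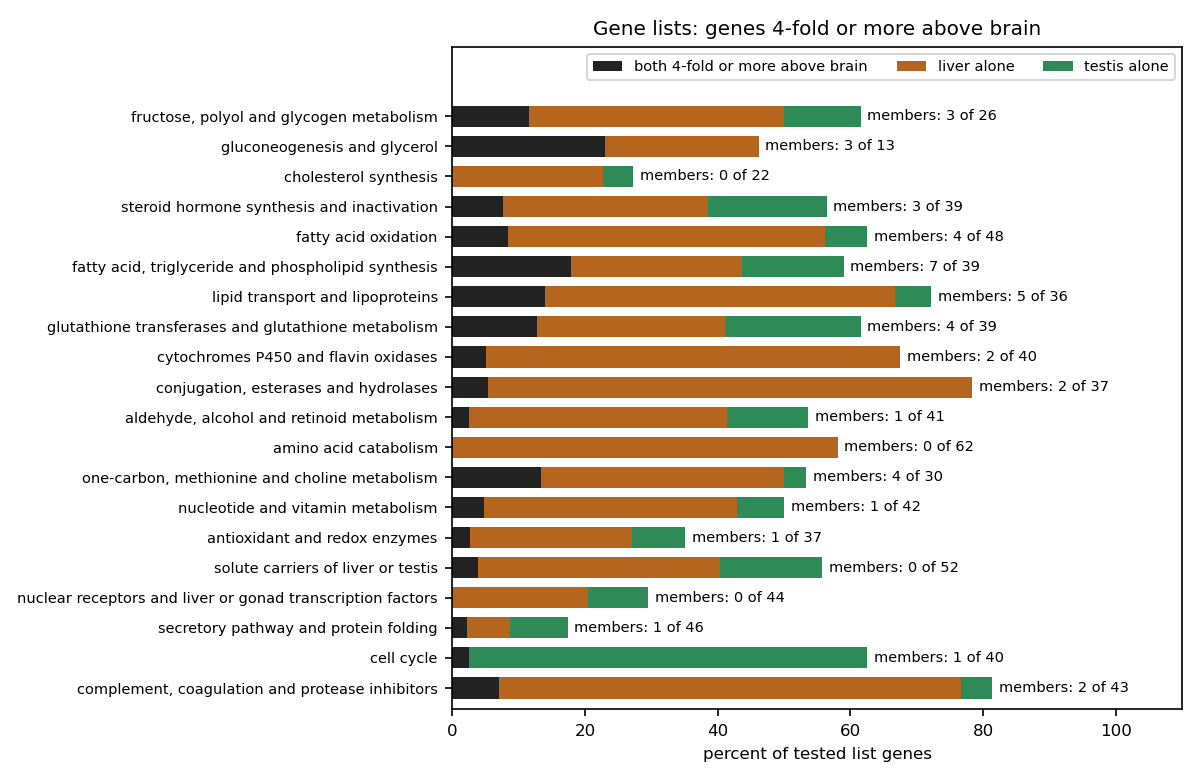
Percent of each list's tested genes (x axis) that were at least 4-fold above brain in both organs (black), in liver alone (orange) or in testis alone (green), with the number of members beside each bar. Amino acid catabolism has no black part, and cell cycle has no orange part.

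Some members were neighbours. On mm9, Hsd3b3 and Hsd3b6 lay 42.4 kb apart, Gstm6 and Gstm2 38.0 kb, and Gstm2 and Gm12499 43.1 kb, and Gm12499 gave 0.506, 15.1 and 47.3 FPKM in brain, liver and testis. Dap and Ropn1l (167 kb) and Pafah2 and Gm13131 (196 kb) were further pairs under 200 kb. Members lay on 20 chromosomes, with 1 on the X, the pseudogene Gm14686, of 168 X-linked genes at 5 FPKM in both organs. The division of reads between Gm14686 and its copies is uncertain. The median locus length of members was 21362 bp, against 10259 bp for all 4247 genes at that level. The sets differ in gene class, with 88 of 98 members but 3116 of the 4247 genes protein-coding, and lengths were not compared within a class.

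Scaling sets how many genes pass. When each table was scaled to its protein-coding FPKM sum, 60 of the 98 stayed members. Over tested features at 1 FPKM or more in any tissue, the median shift was -0.59 for liver against brain and -0.57 for testis against brain. Scaling by the median ratio of genes gave, over the same features, a median shift of 0.48 for liver against brain and under 0.01 for testis against brain. With it 91 of the 98 stayed among 131 members.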

How the data were processed

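Strand-specific libraries of polyadenylated RNA from brain, liver and testis were mapped and quantified by the authors with TopHat 1.4.0, Bowtie 0.12.5 and Cufflinks 2.0.0 on mm9, per the submitters' processing notes. The authors deposited 1 table per library whose columns, per the file headers, hold FPKM per gene with its status and bounds. No label or header used here gives the annotation, the level of the bounds or read counts. Depth was judged from the bounds of features at 1 to 2 FPKM in each library. Their median upper half-width was 18.1% of FPKM for brain, 12.4% for liver and 19.3% for testis. Over members it was 32.03%, 3.55% and 5.97%, but the rule set members low in brain, so these values do not measure depth.

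The 36809 identifiers in all 3 tables were used, and estimates not marked OK (811 in brain, 1066 in liver, 995 in testis) were left out. FPKM was compared as deposited on the log2(FPKM + 1) scale, where differences of low genes come out too small. GENCODE M21 served by identifier only for symbols and classes (31856 matched). Of 1002 list entries 987 matched by symbol, 5 by synonym and 10 did not match. Copies were sought with blastn 2.17.0. Promoters came from the RefSeq table, using only the first listed start of each gene, and 6 short motifs were searched there on both strands. Tables were handled in Python 3.11.15 with pandas 2.3.3. The rule was tested on simulated data.

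The members and lists were chosen with earlier results of these data known, and role groups were assigned after values were seen. The named protein-coding genes were the 15 with the largest difference from brain, the 10 with the highest lower level, the 10 leaning most to each organ, 3 per list, and the 3 on each side of each limit, with 5 noncoding members. Other members and relatives of members were named after their values were seen. Other scalings, pseudocounts, limits and filters were tried as alternatives. Results for 3 members are not reported here, although counts include them.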

Additional observations from a re-analysis of the deposited data

How the results depend on the processing

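The number of members went from 98 to 60 under scaling to the protein-coding FPKM sum, 65 at a 10 FPKM minimum, 230 at 2-fold and 37 at 8-fold. Protein-coding members, 88 in the main count, numbered 53, 202 and 34 under that scaling, at 2-fold and at 8-fold. The share of members on a functional list, 41.8%, became 53.3%, 29.6% and 70.3% under the same 3 settings. The share of members with a CpG ratio under 0.35, 47.0%, became 25.5% at 2-fold and 65.4% at 8-fold. Pseudocounts of 0.1 and 0.01 gave 123 and 127 members, a 1 FPKM minimum 110, intervals that do not overlap 97, the bounds facing each other 72, every status 104 and no length minimum 107. Leaving out members with a near-identical copy, chosen after seeing the data, gave 84, among them the 2 features that could not be searched. No paired analysis was possible because each tissue has 1 library. Brain levels under 1 FPKM are the least certain, with a median upper half-width of 18.1% of FPKM already at 1 to 2 FPKM, and 54 members lie below that.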

Other observations

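Some genes showed the same levels but lacked an OK status in a table. Without the status condition 6 more genes pass: Ugt1a6a, Rnf125, Osgin1, Proc, BC021767 and Chdh. Their estimates are marked as less certain, and they are not counted above. Without the length limit 9 more features pass, among them the microRNA genes Mir1898, Mir21a and Mir22, all listed at 0 in brain, where an exact 0 can be a failed estimate.

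Of the short motifs searched upstream of 66 protein-coding members, GGGCGG was found in 40.9%, against 61.7% of other protein-coding genes at 5 FPKM in both organs. It was found in 46.3% of all 14176 tested protein-coding genes and in 32.9% of all 27025 promoters of any class. In the same order, CCAAT was found in 43.9%, 38.5%, 36.2% and 34.5%, and TATAAA in 9.09%, 5.69%, 11.3% and 12.97%. CAAGGTCA was found in 2 members (3.03%), against 0.824%, 1.09% and 1.31% of those 3 backgrounds. TGACGTCA was in no member, against 3.71%, 2.19% and 1.62%. The DR1 repeat of nuclear receptor sites was in no member, against 0.124%, 0.0494% and 0.0370%. CAAGGTCA and the DR1 repeat share the letters AGGTCA. Both strands were searched, and a match is a run of letters and not a bound site.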
